A study of Homo sapiens with 16 samples.

Results

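The chemokine ligands on the array were every probe, control spots aside, whose gene name was CCL, CXCL, CX3CL or XCL followed by a number, together with IL8 (now called CXCL8) and PF4. The rule used names and no measured values, and found 58 probes for 42 genes among the 50599 probes of the array. RNA came from RPMI-8226 and MM.1S cells, which are established human multiple myeloma lines, and was labelled with 1 dye and hybridized to 16 Agilent expression arrays. Cells of each line received the solvent DMSO, the EZH2 inhibitor GSK126 at 1 μM, the G9a inhibitor UNC0638 at 1 μM, or both inhibitors at 1 μM each, for 6 days, with 2 replicates in each of the 8 groups. EZH2 places the repressive mark H3K27me3 and G9a the repressive mark H3K9me2, and the design asks which genes change when either enzyme or both are inhibited. Each line is a single established cell line grown without stromal or immune cells, and all lymphocytes, monocytes and stroma of the marrow are missing from the model.

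Chemokines are small secreted proteins that bind G protein-coupled receptors and draw leukocytes along a gradient. They are named by the spacing of their first cysteines (CC, CXC, CX3C or XC), and many lie in gene clusters formed by duplication. CXCL9, CXCL10 and CXCL11 are induced by interferon and attract activated T cells and natural killer cells through CXCR3, whereas the CXCL8 family attracts neutrophils through CXCR2. In myeloma, CXCL12 from stroma holds plasma cells in the marrow through CXCR4, and CCL3 made by the tumor cells is known for its part in bone lesions.

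Promoters of the 6 CXCR2 ligands found by the name rule and of CXCL9 and CXCL10 are shown first. Those of the first group share a short sequence, and those of the pair share another. Sequences were taken from RefSeq (GRCh38.p14), which held promoters for 30 of the 42 genes, and the 250 bases before each start were searched on both strands. GGAANTTCC, a form of the NF-kappaB motif, was present in 9 of 35 chemokine promoters (25.7%) and in 0.826% of all 35116 promoters. All 6 ligands of CXCR2 that the name rule found held it as GGAATTTCC, 77 to 91 bases before the start. The bases around the match and up to the start are printed 5′ to 3′ on the strand of the gene, and capitals mark the match.
CXCL8 (IL8), chr4:73740419-73740568, plus strand: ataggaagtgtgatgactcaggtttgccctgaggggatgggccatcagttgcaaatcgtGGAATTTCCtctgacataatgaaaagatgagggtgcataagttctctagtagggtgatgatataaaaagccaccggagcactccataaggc
CXCL6, chr4:73836568-73836677, plus strand: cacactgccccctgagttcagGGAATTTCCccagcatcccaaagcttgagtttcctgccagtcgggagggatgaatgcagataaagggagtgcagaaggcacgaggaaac
CXCL1, chr4:73869283-73869392, plus strand: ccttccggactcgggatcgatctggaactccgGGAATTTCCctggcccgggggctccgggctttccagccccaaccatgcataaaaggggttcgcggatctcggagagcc
CXCL2, chr4:74099196-74099305, minus strand: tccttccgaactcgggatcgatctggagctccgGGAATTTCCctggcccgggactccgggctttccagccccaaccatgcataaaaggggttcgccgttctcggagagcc
CXCL3, chr4:74038690-74038799, minus strand: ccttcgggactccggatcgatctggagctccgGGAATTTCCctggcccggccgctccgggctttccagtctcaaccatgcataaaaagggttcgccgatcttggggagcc
CXCL5, chr4:73998678-73998787, minus strand: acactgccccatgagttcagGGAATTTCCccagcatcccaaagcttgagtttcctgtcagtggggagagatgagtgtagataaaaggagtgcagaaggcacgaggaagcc

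A pair of GAAA separated by 2 bases, the core of the interferon-stimulated response element, was present in 2 of the 35 chemokine promoters (5.71%) and in 3.02% of all promoters. These were CXCL9 and CXCL10, but not CXCL11, and CXCL10 also held a GGAANTTCC match. Both are printed in the same way, with capitals for either motif.
CXCL9, chr4:76007510-76007699, minus strand: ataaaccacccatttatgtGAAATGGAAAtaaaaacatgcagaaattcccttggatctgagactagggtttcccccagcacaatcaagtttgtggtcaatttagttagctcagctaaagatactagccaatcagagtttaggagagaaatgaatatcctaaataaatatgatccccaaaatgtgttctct
CXCL10, chr4:76023498-76023727, minus strand: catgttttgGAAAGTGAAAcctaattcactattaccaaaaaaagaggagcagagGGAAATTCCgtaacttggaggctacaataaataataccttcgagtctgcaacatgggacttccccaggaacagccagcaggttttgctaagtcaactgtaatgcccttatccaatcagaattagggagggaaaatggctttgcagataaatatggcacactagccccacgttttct
The other promoters with GGAANTTCC were those of CCL1 and CXCL11. TGACTCA, the AP-1 motif, was found in 17.1% and 4.2%, and was present before CXCL8. Neither start of CXCL13 held any of these motifs. A match is only a description of the letters in this window.

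All levels below are log2 intensity minus the 75th percentile of the same array, so a level of 0 equals that percentile, and levels of different probes cannot be set against each other. The 75th percentile was 256 to 349 intensity units on the RPMI-8226 arrays and 431 to 477 on the MM.1S arrays. No spot was saturated, and 46.5% to 49.7% of spots were well above background in RPMI-8226 and 49.9% to 52.8% in MM.1S. All 8 plasma cell markers examined were above background on every array of both lines. Each line lay on 1 slide with 1 scan, each treatment in its own slide column and each replicate in its own row. Line and slide therefore cannot be told apart, nor treatment and column, nor replicate number and row. The labels only number the replicates, while the study calls them biological replications. Whether they were separate cultures is not given in the sources used here, so the p-values measure the spread between these samples.

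Of the 42 genes, 22 were tested in RPMI-8226 and 16 in MM.1S, where a gene was tested if both replicates of any group put a probe well above background. Both lines shared 14 of these genes, 8 were tested only in RPMI-8226 and 2 (CXCL13 and CCL25) only in MM.1S. The other 18 genes were tested in neither line. Of these, 14 were below background on all 16 arrays, namely CCL8, CCL11, CCL13, CCL20, CCL21, CCL22, CCL23, CCL26, CCL28, CXCL11, CXCL14, CX3CL1, XCL1 and PF4. CCL14, CCL17, CCL19 and CCL27 were above background on some array but never on both of a group. By chromosome, 11 of the 42 genes lay on chromosome 4 and 16 on chromosome 17. Probe positions from the array files are on GRCh37, whereas the promoters are on GRCh38.p14.

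**Figure D1:**
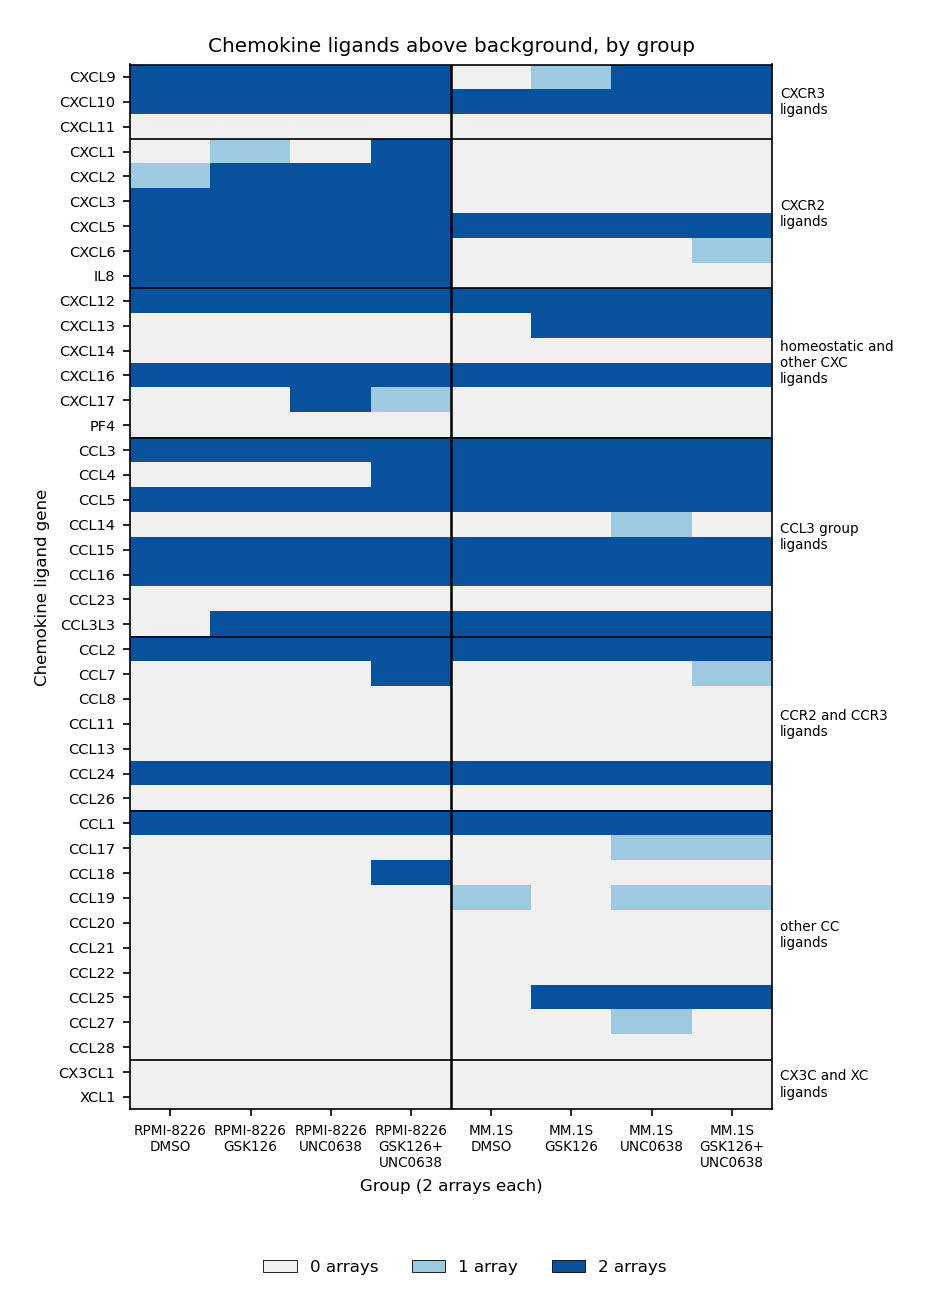
Number of arrays on which each of the 42 chemokine ligands was well above background (0, 1 or 2; colour) in each of the 8 groups, with genes in rows, groups in columns and the best probe of each gene shown. Below background on all 16 arrays were 14 genes, and CXCL13 and CCL25 were above background in MM.1S alone.

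The combination of GSK126 and UNC0638 raised chemokine ligands in RPMI-8226 cells. With limma and Benjamini-Hochberg adjustment over all 23199 probes tested, 17 of 29 chemokine probes, for 13 of 22 genes, were called higher than with DMSO at an adjusted p under 0.05, and 0 were called lower. Among all probes tested, 12.4% were called in either direction, 7.2% higher and 5.17% lower, beside 58.6% of the chemokine probes. At an unadjusted p under 0.05, 4 chemokine probes were lower. In the fit with the replicate number as a block, since the numbers were taken to pair the samples in RPMI-8226, 20 were higher and 3 lower. The median log2 change of the 29 probes was 2.52, or 1.68 with dim probes set at their bounds, beside -0.13 for all probes.

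Part of that count was built in by the filter. On both DMSO arrays 8 of the 29 probes were below background, so they were tested because another group was high, and 7 of the 8 were called. The counts are therefore a description. When only the 19 probes above background on all 8 arrays were refitted, 10 of them (52.6%) were called. Of the arrays, combination replicate 1 and DMSO replicate 1 mattered most, since 10 and 11 probes were called without them. Taking the percentile over probes above background on every array raised the median change of all probes by 0.15 in RPMI-8226 and 0.16 in MM.1S, and moved the higher share of all calls from 58.2% to 77.8% in RPMI-8226 and from 41.2% to 55.6% in MM.1S. No chemokine call changed direction under that scaling.

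Single inhibitors gave fewer calls in RPMI-8226 cells. GSK126 alone raised 2 probes (6.9%), for CXCL6 and CXCL9, beside 0.547% of all probes higher (0.599% in either direction). None was lower by limma, beside 0.0517% of all probes (1 at an unadjusted p under 0.05). UNC0638 alone raised 3 probes (10.3%), for CXCL6 and CXCL10, beside 0.556% of all probes higher (0.634% in either direction), and none was lower, beside 0.0776% (1 at an unadjusted p under 0.05). At an unadjusted limma p under 0.05, 14 probes were higher with GSK126 and 8 with UNC0638, beside 18 with the combination. Median log2 changes were 0.98 and 0.31, or 0.63 and 0.0 with dim probes at their bounds, beside 2.52 and 1.68 with the combination. The adjustment is made within each comparison, so the called counts do not share 1 cutoff. Called counts with paired replicates were 9 for GSK126 and 5 for UNC0638. They were fragile in the fit without pairing, with 0 to 2 calls for GSK126 and 0 or 1 for UNC0638 when each array was left out, and 0 in both cases without DMSO replicate 1. The 3 comparisons share the DMSO arrays.

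In MM.1S cells the combination called 14 of 22 chemokine probes (63.6%) beside 53.9% of all 25102 probes, so the share of chemokine ligands called was close to that of all probes. Of these, 11 probes for 8 genes were higher, beside 22.2% of all probes, and 3 probes for CCL24, CCL3L3 and CXCL5 were lower, beside 31.7%. GSK126 alone called 9 higher and 3 lower (54.5% in all), beside 5.19% of all probes higher and 2.39% lower (7.58% in all). Without DMSO replicate 2, only 2 probes were called with GSK126. UNC0638 alone called 7 higher and 2 lower (40.9% in all), beside 12.8% and 16.5% (29.3% in all). Median changes with the combination were 0.34 for the chemokine probes, also with dim probes at their bounds, and -0.12 for all probes. On both DMSO arrays 5 of the 22 probes were below background, and all 5 were called.

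**Figure D2:**
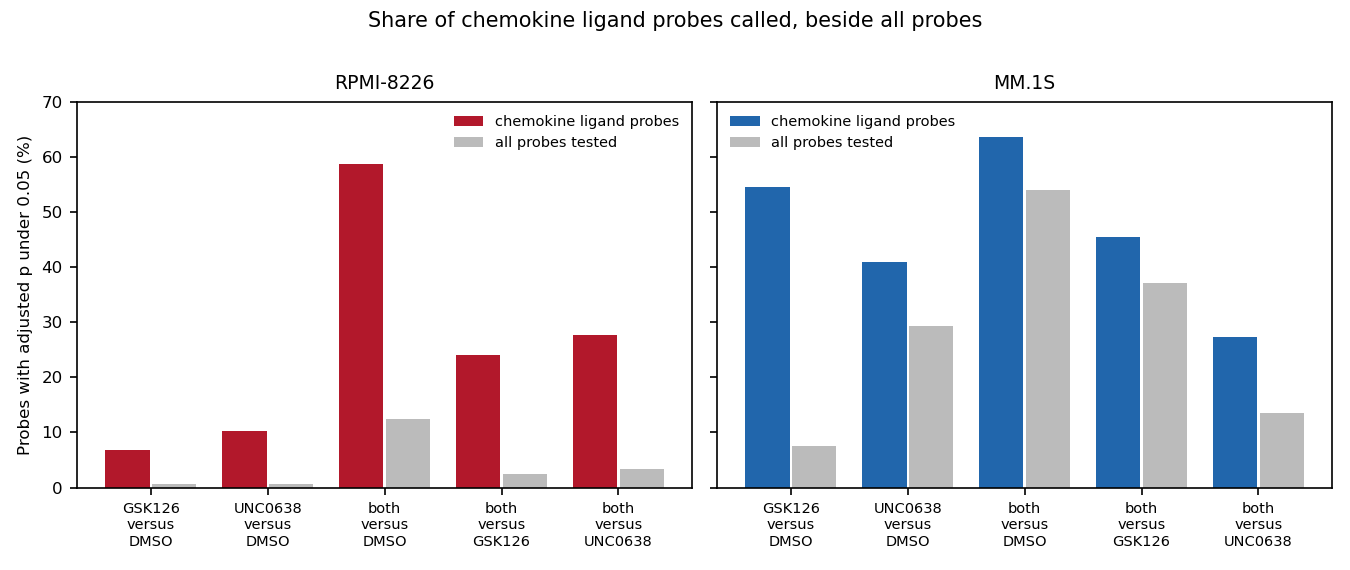
Percent of probes called by limma at an adjusted p under 0.05 (bar height, axis from 0) among chemokine ligands and among all probes tested, for 5 comparisons in each line. With the combination against DMSO the shares were 58.6% and 12.4% in RPMI-8226 but 63.6% and 53.9% in MM.1S.

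Of the 3 ligands of CXCR3, CXCL9 and CXCL10 rose in both lines, and CXCL11 was below background. CXCL9, which attracts activated T cells, was measured by a probe at chr4:76922796-76922855 (minus strand). In RPMI-8226 its level was -1.47 and -1.64 with DMSO, 0.68 and 1.19 with GSK126, 0.07 and -0.07 with UNC0638, and 2.16 and 2.79 with the combination. The 4 groups did not overlap, and the combination stood highest. Relative to DMSO, CXCL9 was 5.60-fold higher with GSK126 (log2 change 2.49, SE 0.26, limma adjusted p = 0.0233) and 16.3-fold higher with the combination (4.03, SE 0.26, adjusted p = 0.000541). The change with UNC0638 was 1.55 (adjusted p = 0.0752, or 0.0427 with paired replicates). The combination also exceeded GSK126 by 1.54 and UNC0638 by 2.47 on the log2 scale, both called, although the first call was lost whichever of the 8 arrays was left out. The call for GSK126 alone was lost in 6 of the 8 refits that left out an array.

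In MM.1S, CXCL9 was below background on both DMSO arrays. It measured -3.53 and -4.81 with GSK126, where only the first was above background, -4.23 and -3.46 with UNC0638, and -2.73 and -2.28 with the combination. Both combination arrays stood above all the others. Where a group was below background on both arrays, the fold is given as a bound, taken from the mean of the brighter group over the dimmest signal well above background on each array of the dim group, or the probe's own signal where that was higher. CXCL9 was at least 1.53-fold higher with GSK126 (limma adjusted p = 0.0264), at least 1.92-fold with UNC0638 (adjusted p = 0.00708) and at least 4.85-fold with the combination (adjusted p = 0.000737). The GSK126 call was lost in 5 of 8 refits.

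CXCL10, the interferon-induced relative of CXCL9, was above background on all 16 arrays. Its probe at chr4:76942934-76942993 (minus strand) measured -0.38 and -0.86 with DMSO in RPMI-8226, 0.14 and -0.12 with GSK126, 1.30 and 0.92 with UNC0638, and 2.22 and 2.14 with the combination. UNC0638 and the combination lay above both other groups. In MM.1S it measured 0.72 and 0.74 with DMSO, 2.14 and 2.05 with GSK126, 1.47 and 1.54 with UNC0638, and 1.43 and 2.09 with the combination, so every treated array lay above DMSO and the GSK126 arrays overlapped the combination.

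By limma CXCL10 was 6.95-fold higher with the combination in RPMI-8226 (log2 change 2.80, SE 0.22, adjusted p = 0.001) and 3.32-fold with UNC0638 (adjusted p = 0.0318), but GSK126 did not pass (0.63, adjusted p = 0.376). The UNC0638 call was lost whichever array was left out. In MM.1S it was 2.57-fold higher with GSK126 (1.36, SE 0.21, adjusted p = 0.0204), 1.71-fold with UNC0638 (adjusted p = 0.0365) and 2.05-fold with the combination (1.03, adjusted p = 0.00721). The GSK126 call on this probe was lost in 4 and the UNC0638 call in 6 of the 8 refits. A second probe of CXCL10 gave the same calls against DMSO, with combination changes of 3.10 in RPMI-8226 and 1.19 in MM.1S. CXCL11, the third ligand of CXCR3, was below background throughout.

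The CXCR2 ligands found by the name rule were detected almost only in RPMI-8226. All 6 genes were tested there and 4 rose with the combination, whereas in MM.1S only CXCL5 was tested. CXCL6, which attracts neutrophils and was measured at chr4:74703368-74703427 (plus strand), had levels of -3.64 and -3.72 with DMSO, -1.96 and -1.88 with GSK126, -1.47 and -1.41 with UNC0638, and 0.61 and 0.18 with the combination. Its replicates lay close together, and no groups overlapped. CXCL6 was 3.38-fold higher with GSK126 (log2 change 1.76, SE 0.17, limma adjusted p = 0.02), 4.71-fold with UNC0638 (2.24, adjusted p = 0.00776) and 16.8-fold with the combination (4.07, adjusted p = 2.27e-04). The combination exceeded GSK126 by 2.32 and UNC0638 by 1.84, both called and never lost when an array was left out. The calls for single inhibitors were lost in 6 and 3 of the 8 refits. The second CXCL6 probe was below background on all arrays but 1, so only 1 probe carries this result.

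IL8, the neutrophil attractant CXCL8, was measured at chr4:74609265-74609324 (plus strand). In RPMI-8226 it had levels of -1.25 and -1.92 with DMSO, 0.92 and 0.35 with GSK126, 0.14 and -0.17 with UNC0638, and 2.30 and 1.61 with the combination. All treated arrays lay above both DMSO arrays, and the combination was highest. It was 11.6-fold higher with the combination (log2 change 3.54, SE 0.34, limma adjusted p = 0.00201). GSK126 gave 2.22 (adjusted p = 0.0544, or 0.00556 with paired replicates) and UNC0638 1.57 (adjusted p = 0.142, or 0.00937 paired). A second IL8 probe, dimmer, rose by 2.56 with the combination (adjusted p = 0.031), a call lost in 5 of 8 refits.

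CXCL3 and CXCL2 are close relatives of CXCL1 that also recruit neutrophils. In RPMI-8226, CXCL3 measured -1.97 and -2.82 with DMSO, 0.04 and -1.24 with GSK126, -0.88 and -1.67 with UNC0638, and 0.95 and -0.39 with the combination. CXCL2 measured -2.79 and -4.11 with DMSO, the second below background, -1.38 and -2.28 with GSK126, -2.31 and -3.16 with UNC0638, and -0.34 and -1.52 with the combination. Replicate 1 was the higher in every group of both genes, and the combination stood above DMSO on both arrays. CXCL3 was 6.38-fold higher with the combination (limma adjusted p = 0.0385) and CXCL2 5.74-fold higher (adjusted p = 0.0435). These calls were weak, being lost in 5 refits for CXCL3 and in all 8 for CXCL2, with adjusted p up to 0.184 and 0.209. With paired replicates GSK126 alone also passed for CXCL3 (1.80, adjusted p = 0.0144) and CXCL2 (1.62, adjusted p = 0.0143). A second CXCL2 probe was below background.

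CXCL1, the founding member of this group, was below background on both DMSO and both UNC0638 arrays of RPMI-8226. It measured -3.38 and -4.38 with GSK126, the second below background, and -2.82 and -3.84 with the combination. The combination gave at least 2.09-fold (limma adjusted p = 0.057, or 0.00318 with paired replicates). CXCL5, which carries the same promoter match as the others, did not follow them. In RPMI-8226 it measured 0.41 and 0.32 with DMSO, -0.29 and 0.11 with GSK126, -0.03 and 0.29 with UNC0638, and 0.17 and 0.22 with the combination (log2 change -0.17, adjusted p = 0.57). In MM.1S it measured 0.56 and 0.66 with DMSO, 0.42 on both GSK126 arrays, 0.41 and 0.33 with UNC0638, and 0.18 and -0.06 with the combination. The combination was lowest there and CXCL5 fell by 0.55 (adjusted p = 0.00623).

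**Figure D3:**
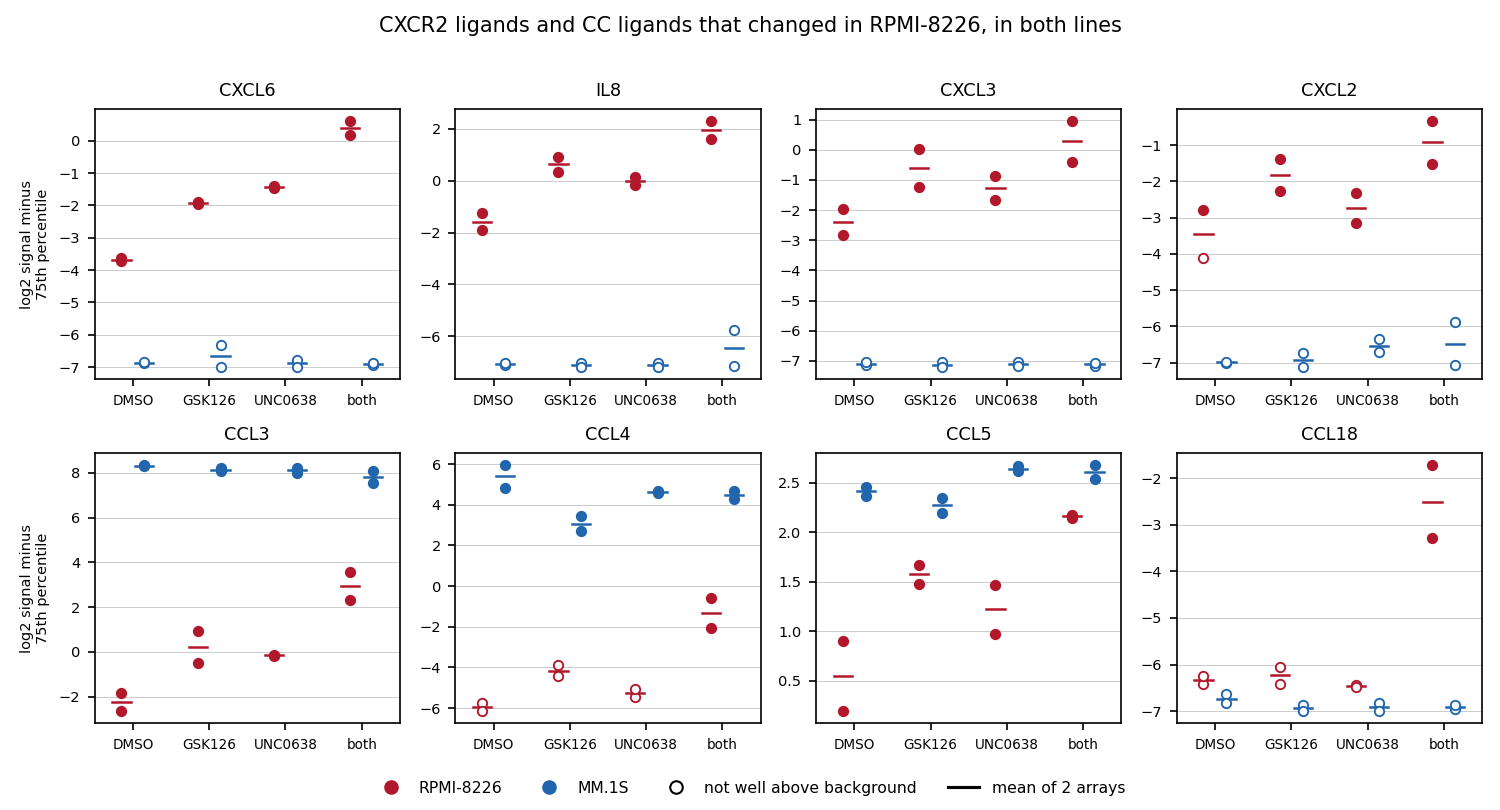
Level (log2 intensity minus the 75th percentile of the array, vertical axis) of 8 chemokine ligands that changed in RPMI-8226, on every array of both lines, by treatment. Points are single arrays, open where not well above background, and lines mark group means. Within RPMI-8226, CXCL6 and CCL3 reach their highest levels on the combination arrays, and CCL4 and CCL18 were above background in the combination alone.

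Several ligands of the CCL3 group rose with the combination in RPMI-8226 and did not in MM.1S. CCL3 (macrophage inflammatory protein 1 alpha) attracts monocytes and T cells. In RPMI-8226 its probe at chr17:34415605-34415664 (minus strand) measured -2.64 and -1.84 with DMSO, 0.94 and -0.47 with GSK126, -0.13 and -0.17 with UNC0638, and 3.55 and 2.32 with the combination. In MM.1S the same probe measured 8.34 and 8.31 with DMSO, 8.22 and 8.06 with GSK126, 8.22 and 8 with UNC0638, and 7.56 and 8.09 with the combination. The lowest MM.1S array thus lay above the highest RPMI-8226 array, on different slides.

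CCL3 was 36.1-fold higher with the combination in RPMI-8226 (log2 change 5.18, SE 0.57, limma adjusted p = 0.00336). In the fit without pairing neither inhibitor alone passed, with 2.48 for GSK126 (adjusted p = 0.175) and 2.09 for UNC0638 (adjusted p = 0.263). In MM.1S the combination gave -0.50 (adjusted p = 0.0622). The change with the combination differed between the lines by 5.67 (SE 0.67, adjusted p = 0.000641).

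CCL4 (macrophage inflammatory protein 1 beta) is a close relative of CCL3. Like CCL3 it has near-identical copies, and which copy its probes read could not be settled. In RPMI-8226 its first probe was below background on all 6 other arrays, and measured -0.56 and -2.05 with the combination. It was at least 8.52-fold higher than with DMSO (limma adjusted p = 0.00263) and at least 5.02-fold by the second probe. In MM.1S it measured 4.84 and 5.95 with DMSO, 3.43 and 2.72 with GSK126, 4.67 and 4.59 with UNC0638, and 4.70 and 4.30 with the combination. Both GSK126 arrays were below all others. CCL4 fell by 2.32 with GSK126 (adjusted p = 0.0289, lost in 7 of 8 refits), while the combination did not pass (-0.89, adjusted p = 0.109) and stood 1.43 above GSK126, a call lost in 6 of 8 refits.

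CCL3L3 is a near-identical copy of CCL3, and these probes may read either gene. Its first probe was below background on both DMSO arrays of RPMI-8226 and measured -1.75 and -4 with GSK126, -3.51 and -3.58 with UNC0638, and 0.42 and -0.68 with the combination. The combination was highest, at least 19.2-fold above DMSO (limma adjusted p = 0.00882, lost in 2 of 8 refits), and at least 7.10-fold by the second probe (adjusted p = 0.0197, lost in 3). In MM.1S it measured 7.79 and 7.62 with DMSO, 7.07 and 6.60 with GSK126, 7.46 and 7.23 with UNC0638, and 7.19 and 6.87 with the combination. With the combination it fell by 0.68 (adjusted p = 0.028, lost in 3 of 8 refits and in 4 of the other alternatives, up to 0.392). The second probe fell by 0.94 with GSK126 (adjusted p = 0.0447, lost in all 8 refits).

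CCL5 (RANTES), a T cell and monocyte attractant, was above background on every array. In RPMI-8226 it measured 0.19 and 0.90 with DMSO, 1.67 and 1.48 with GSK126, 0.97 and 1.47 with UNC0638, and 2.15 and 2.18 with the combination. DMSO was lowest and the combination highest, with no overlap between them. CCL5 was 3.08-fold higher with the combination (log2 change 1.62, SE 0.27, limma adjusted p = 0.015), a call lost in 2 of 8 refits. In MM.1S its 8 arrays lay between 2.20 and 2.68, and no change against DMSO passed. CCL15 and CCL16, the other tested ligands of this class, were above background on all 16 arrays by 1 probe each, and were not called in any comparison within a line, while the second CCL16 probe was dim.

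**Figure D4:**
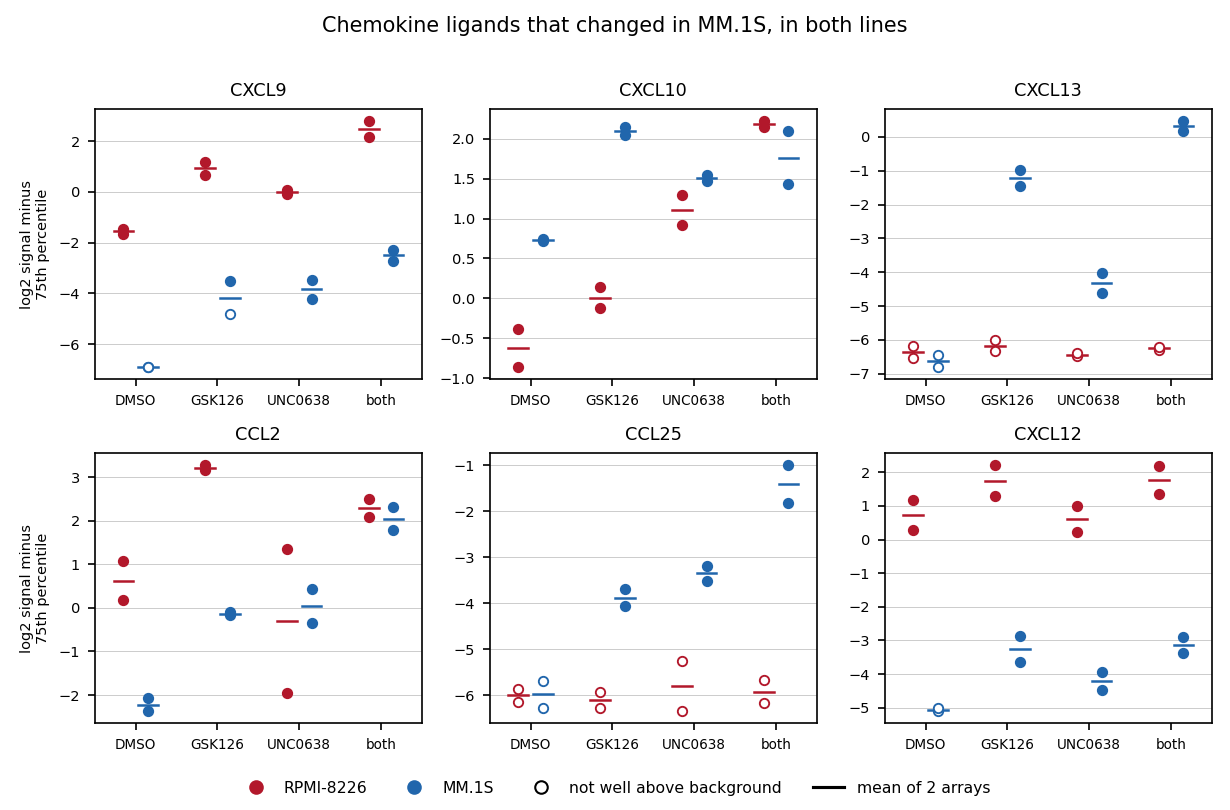
Level (log2 intensity minus the 75th percentile of the array, vertical axis) of 6 chemokine ligands on every array of both lines, by treatment. Points are single arrays, open where not well above background, and lines mark group means. CXCL13 is below background on every RPMI-8226 array, and reaches 0.17 and 0.47 with the combination in MM.1S.

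CXCL13, the ligand of CXCR5 that guides B cells into follicles, was detected in MM.1S alone. Its probe, at chr4:78532646-78532705 (plus strand), was printed in 10 spots on each array. It was below background on both MM.1S DMSO arrays and measured -0.99 and -1.45 with GSK126, -4.02 and -4.61 with UNC0638, and 0.17 and 0.47 with the combination. The groups were ordered DMSO, UNC0638, GSK126 and combination, with no overlap. All 8 RPMI-8226 arrays were below background, with levels from -6.54 to -6.00.

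By limma CXCL13 was at least 11.8-fold higher with GSK126 (adjusted p = 0.00375), at least 1.39-fold with UNC0638 (adjusted p = 0.00375) and at least 34.4-fold with the combination (fitted log2 change 6.94, SE 0.26, adjusted p = 9.5e-05). The combination was 2.91-fold above GSK126 (1.54, adjusted p = 0.00763) and 24.8-fold above UNC0638 (4.63, adjusted p = 0.00489). No refit that left out an array lost any of these calls, but with normexp background correction UNC0638 did not pass (adjusted p = 0.0925). The fitted change differed between the lines under all 3 treatments, by -5.21 with GSK126 (adjusted p = 0.000158), -2.38 with UNC0638 (adjusted p = 0.00697) and -6.83 with the combination (adjusted p = 3.97e-06), each given as RPMI-8226 minus MM.1S. With normexp the UNC0638 difference had an adjusted p of 0.359.

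CXCL12, the ligand of CXCR4, was read by several probes that disagreed in MM.1S. Its probe A_23_P202448 was below background with DMSO there and measured -2.87 and -3.63 with GSK126, -3.93 and -4.48 with UNC0638, and -2.91 and -3.37 with the combination. This was at least 2.90-fold higher with GSK126 (limma adjusted p = 0.0278, lost in 3 of 8 refits) and at least 3.13-fold with the combination (adjusted p = 0.00326). A second probe, A_33_P3712341, was above background throughout, at -3.13 and -3.23 with DMSO and -3.36 and -3.41 with the combination, and it fell by 0.46 with UNC0638 (adjusted p = 0.0434, lost in 7 of 8 refits and up to 0.421 under other settings). No single statement on CXCL12 in MM.1S covers both probes. In RPMI-8226 the first probe measured 0.29 and 1.17 with DMSO, 1.28 and 2.21 with GSK126, 0.23 and 1.00 with UNC0638, and 1.34 and 2.18 with the combination. Replicate 2 was higher in all 4 groups, and the combination change of 1.03 passed by limma with paired replicates (adjusted p = 0.00414) but not without (0.201). By A_24_P412156, dim on every MM.1S array, RPMI-8226 levels were -1.49 and -0.59 with DMSO and -0.92 and -0.11 with the combination. By A_33_P3712341 they were -2.1 and -1.27, then -1.85 and -0.96, so both probes changed less than the first.

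CXCL16, a membrane-bound ligand of CXCR6, rose in MM.1S and had its lowest levels with the combination in RPMI-8226. In MM.1S the first of its 2 probes, A_23_P38505, the brighter over all 16 arrays, measured -0.60 and -0.84 with DMSO, -0.16 and -0.18 with GSK126, -1.06 and -0.96 with UNC0638, and -0.31 and -0.17 with the combination. On this probe GSK126 and the combination lay above DMSO, and UNC0638 below it. The second probe measured -0.53 and -0.75 with DMSO, 0.13 and 0.11 with GSK126, -0.47 and -0.65 with UNC0638, and 0.09 and 0.29 with the combination, so there UNC0638 overlapped DMSO. CXCL16 rose by 0.48 with the combination (SE 0.11, limma adjusted p = 0.0124, lost in 2 of 8 refits) and by 0.55 with GSK126 (adjusted p = 0.0404, lost in all 8 refits), and the second probe rose by 0.83 and 0.76. In RPMI-8226 the first probe measured -0.44 and -0.11 with DMSO and -1.44 and -1.18 with the combination, a change of -1.04 (adjusted p = 0.0565, or 0.00691 with paired replicates). The combination change differed between the lines by -1.51 (adjusted p = 0.0131, lost in 2 of 16 refits).

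CXCL17, a mucosal chemokine, was tested in RPMI-8226 only. It was below background with DMSO and GSK126, and measured -3.21 and -3.57 with UNC0638 and -3.88 and -3.17 with the combination, where only the second was above background. The combination was at least 1.82-fold higher (limma adjusted p = 0.0198, lost in 2 of 8 refits and with normexp at 0.121). UNC0638 did not pass (fitted log2 change 2.25, adjusted p = 0.0808), although its arrays overlapped those of the combination. Each p-value is adjusted within its own comparison, so this shows no difference between the 2 treatments.

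CCL2 (monocyte chemoattractant protein 1), the CCR2 ligand that recruits monocytes, rose under every treatment in MM.1S. At chr17:32584050-32584109 (plus strand) it measured -2.37 and -2.07 with DMSO, -0.17 and -0.10 with GSK126, -0.34 and 0.44 with UNC0638, and 1.78 and 2.31 with the combination. The single inhibitors overlapped each other, and the combination was above both. CCL2 was 4.25-fold higher with GSK126 (limma adjusted p = 0.0174, lost in 4 of 8 refits), 4.84-fold with UNC0638 (adjusted p = 0.00503) and 19.2-fold with the combination (log2 change 4.26, SE 0.29, adjusted p = 0.000271). The combination exceeded GSK126 by 2.18 and UNC0638 by 1.99, both called.

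In RPMI-8226 CCL2 rested on 1 array. It measured 0.19 and 1.07 with DMSO, 3.28 and 3.16 with GSK126, -1.96 and 1.35 with UNC0638, and 2.10 and 2.51 with the combination. UNC0638 replicate 1 lay far below its partner, while the GSK126 and combination arrays all lay above DMSO. By limma no change passed, with 2.59 for GSK126 (SE 0.96, adjusted p = 0.406), -0.94 for UNC0638 (adjusted p = 0.862) and 1.68 for the combination (adjusted p = 0.275). Without UNC0638 replicate 1, an alternative chosen after seeing the data, the adjusted p was 0.0636 for GSK126 (SE 0.32) and 0.0354 for the combination. Leaving out replicate 2 in its place gave the same 2 values, since either leaves that group with no spread of its own.

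CCL7, another monocyte attractant, rose above background in RPMI-8226 with the combination alone, at -3.08 and -3.53, at least 2.13-fold above DMSO (limma adjusted p = 0.0244, lost in 4 of 8 refits). CCL24 (eotaxin 2), which binds CCR3, was above background throughout. In MM.1S it measured 3.51 and 3.38 with DMSO, 3.04 and 3.03 with GSK126, 2.31 and 2.87 with UNC0638, and 2.57 and 2.46 with the combination. Every UNC0638 and combination array lay below the others. It fell by 0.85 with UNC0638 (adjusted p = 0.0186) and by 0.93 with the combination (adjusted p = 0.00664). RPMI-8226 arrays spanned 2.14 to 2.79 with no call.

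CCL25, the CCR9 ligand known from thymus and gut, was above background in MM.1S alone. Its first probe was below background with DMSO and measured -4.07 and -3.70 with GSK126, -3.52 and -3.19 with UNC0638, and -1.82 and -1 with the combination. The treated groups did not overlap. CCL25 was at least 1.87-fold higher with GSK126 (limma adjusted p = 0.022, lost in 4 of 8 refits), at least 2.69-fold with UNC0638 (adjusted p = 0.0046) and at least 10.4-fold with the combination (adjusted p = 0.000299). A second, dimmer probe was above background with the combination alone, at least 3.12-fold above DMSO.

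CCL1, the CCR8 ligand, followed UNC0638 in MM.1S. It measured -2.14 and -2.47 with DMSO, -2.26 and -2.51 with GSK126, -0.98 and -0.79 with UNC0638, and -0.95 and -0.87 with the combination. The combination overlapped UNC0638 alone, and GSK126 overlapped DMSO. CCL1 rose by 1.42 with UNC0638 (limma adjusted p = 0.00296) and by 1.40 with the combination (adjusted p = 0.00081), and the combination exceeded GSK126 by 1.47. In RPMI-8226 it measured 1.17 and 0.59 with DMSO and 0.19 and 0.00 with the combination, a change of -0.78 (adjusted p = 0.0692, or 0.028 with paired replicates). CCL18, a chemokine of alternatively activated macrophages, was above background on no array except both RPMI-8226 combination arrays, at -1.72 and -3.28. It was at least 3.72-fold above DMSO (adjusted p = 0.00443).

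**Figure D5:**
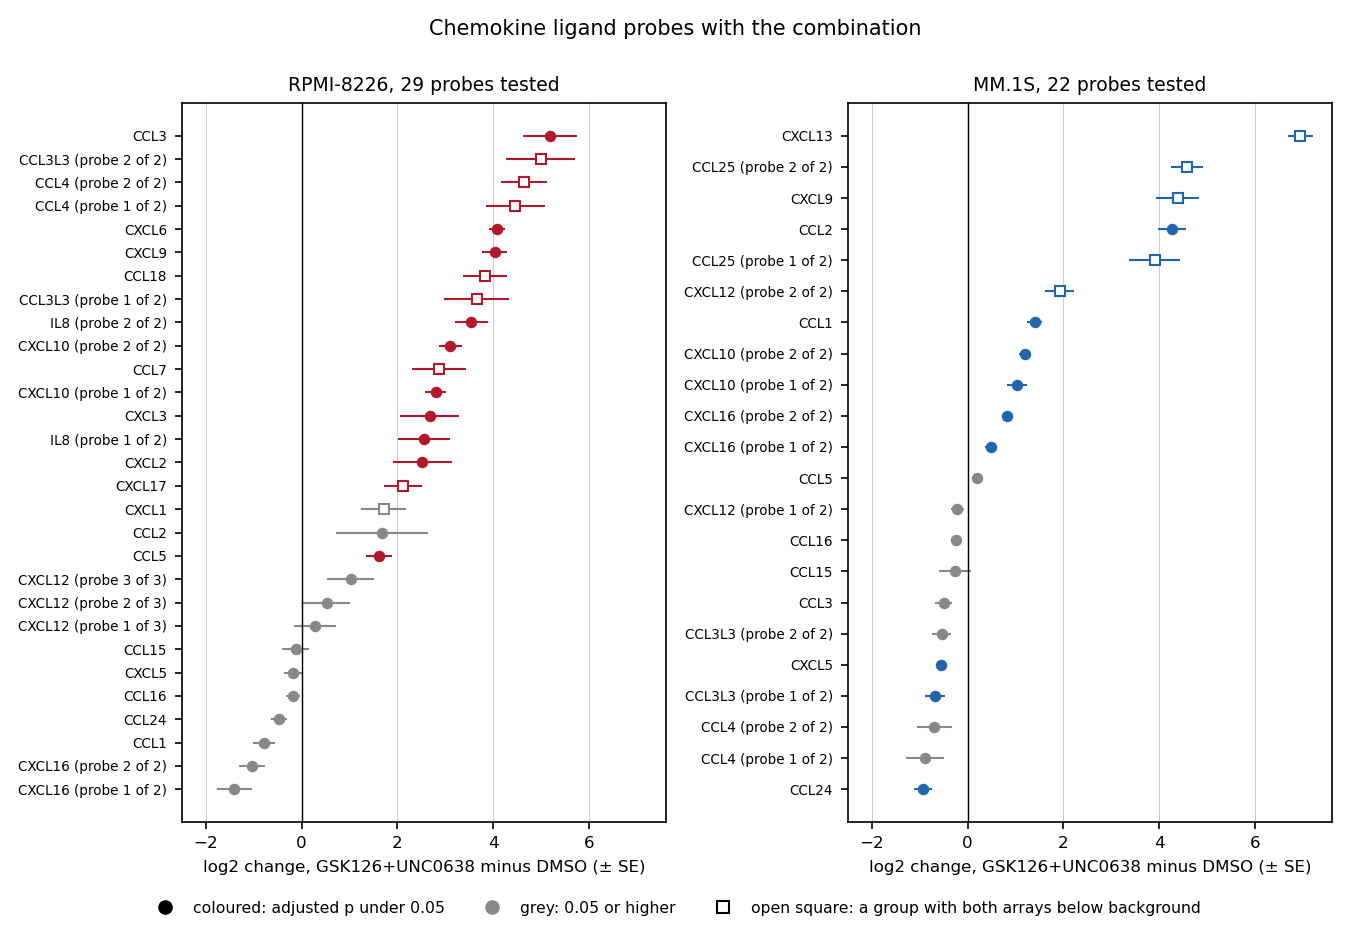
Log2 change with the combination against DMSO (horizontal axis, bars are SE) for every chemokine probe tested in RPMI-8226 and MM.1S. Grey points did not pass limma at an adjusted p under 0.05, and open squares have a group below background on both arrays, so their position is a fitted value and not a bound. CCL3 stands at 5.18 in RPMI-8226 and -0.50 in MM.1S, and CXCL13 at 6.94 in MM.1S.

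Against the single inhibitors, the combination called 7 chemokine probes higher and 0 lower than GSK126 in RPMI-8226 by limma, or 24.1% of them (2 lower at an unadjusted p under 0.05). Of all probes 2.01% were higher and 0.543% lower, 2.55% in all. Against UNC0638 it called 8 higher and 0 lower, or 27.6% (0 lower unadjusted), beside 2.69% and 0.698% of all probes (3.39% in all). With paired replicates 11 and 17 were called. CXCL6, CXCL9, CCL4 and CCL18 were higher than with either inhibitor. Against GSK126 the CCL4 calls were lost in 7 and 6 of 8 refits for its 2 probes, the CXCL9 call in 8 and the CCL18 call in 2, and with normexp those of CCL4 and CCL18 were lost. Without UNC0638 replicate 1 only 2 probes exceeded UNC0638, and without GSK126 replicate 2 only 3 exceeded GSK126. In MM.1S, 9 were higher and 1 lower than with GSK126 (45.5% in all), beside 15.1% and 22% of all probes (37.1% in all). Against UNC0638, 6 were higher and 0 lower (27.3%; 1 lower unadjusted), beside 6.03% and 7.43% (13.5% in all). CCL2, CCL25 and CXCL13 were higher than with either inhibitor there, and against UNC0638 the CCL2 call was lost in 2 and the CCL25 calls in 3 and 6 of 8 refits. Without combination replicate 2 only 1 MM.1S probe exceeded UNC0638, and without GSK126 replicate 2 the count against GSK126 was 5. These comparisons share the combination arrays.

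The difference between the lines was tested itself, as the change in RPMI-8226 minus that in MM.1S, over 26931 probes. With the combination 18 chemokine probes (56.2%) differed, 12 upward and 6 downward, beside 7.28% and 6% of all probes (13.3% in all). With UNC0638 alone 4 differed (12.5%), 1 upward and 3 downward, beside 1.11% and 1.79% (2.89% in all). With GSK126 alone 3 differed (9.38%), 2 upward and 1 downward, beside 0.356% and 0.427% (0.783% in all), or 7 with paired replicates. These 3 probes, for CCL4, CXCL13 and CXCL6, were below background on most or all arrays of a line, and among probes above background on all 16 arrays 0 differed by limma with GSK126, 1 with UNC0638 and 7 with the combination. Without RPMI-8226 DMSO replicate 1 only 1 probe differed with GSK126. CXCL6, IL8, CCL3, CCL4 and CCL18 changed more in RPMI-8226, and CXCL13, CCL25 and CCL1 more in MM.1S. CXCL9 was not called different (-0.35, SE 0.57, limma adjusted p = 0.724), although CXCL10 changed more in RPMI-8226 (1.77, adjusted p = 0.00642).

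Other genes of the chemokine pathway were taken from lists. Of 17 chemokine receptors 10 were tested in each line with the combination. In RPMI-8226, 2 passed the test, beside 12.4% of all probes, and both rose, namely CCR7 (at least 7.61-fold, limma adjusted p = 0.00387) and CCR3 (log2 change 2.24, adjusted p = 0.00521). In MM.1S, 5 rose and 3 fell, beside 53.9% of all probes called in either direction. CX3CR1 was at least 31.5-fold higher, CCR2, the receptor of CCL2, rose by 3.22, CCR3 rose by 2.70, and CXCR3, the receptor of CXCL9 and CXCL10, fell by 1.51. CXCR5, the receptor of CXCL13, rose by 1.33 in MM.1S and was not tested in RPMI-8226. CXCR4 passed in neither line, with 0.05 (adjusted p = 0.855) in RPMI-8226 and -0.17 (adjusted p = 0.357) in MM.1S.

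Of 14 genes of the interferon pathway, 12 were tested in each line. In RPMI-8226, 3 rose and 1 fell with the combination, a share above the 12.4% of all probes called there. IRF9, which forms part of the factor that binds interferon response elements, rose most (1.54, limma adjusted p = 0.00398). IFNGR1, a chain of the interferon gamma receptor, rose by 1.29, IRF7 rose by 1.1, and the lymphoid factor IRF8 fell by 1.13. In MM.1S, 5 rose and 1 fell, a share below the 53.9% of all probes called there. IRF9 stood at 1.48, JAK2 at 1.14 and IFNGR1 at 0.94, and the gene that fell was IFNAR2, at -0.92. The list medians were 0.57 and 0.32, beside -0.13 and -0.12 for all probes. Of the NF-kappaB list, 1 of 13 passed in RPMI-8226, a share below the 12.4% of all probes (LTB, a lymphotoxin, higher by 1.5, adjusted p = 0.0334). In MM.1S, 6 of 14 rose, among them LTB (at least 1.94-fold), the subunit REL (1.71), the inhibitor NFKBIA (0.87) and LTA (0.73), and 3 fell, beside 53.9% of all probes called.

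Markers of other cell types moved with the treatments too, and chemokines are also made by such cells. Each list is given as the sum of its levels on the linear scale relative to the 75th percentile. In RPMI-8226 the 7 markers of T and NK cells summed to 0.793 and 0.842 with DMSO, 1.92 and 1.28 with GSK126, 4.96 and 4.24 with UNC0638, and 14.6 and 12.7 with the combination. Of these, 4 were above background on all 8 arrays and GNLY was above background on none. With the combination 5 of the 6 tested rose, CD3D among them by 4.99, and CD8A fell by 0.74. Of all probes 7.2% were called higher there and 5.17% lower. The 6 monocyte and macrophage markers summed to 1.78 and 2.27 with DMSO, 5.16 and 6.99 with GSK126, 1.61 and 1.97 with UNC0638, and 8.27 and 6.73 with the combination, with 3 above background throughout and FCGR3A on no array. In MM.1S the T and NK cell sums were 0.917 and 0.9 with DMSO, 0.921 and 0.889 with GSK126, 1.65 and 1.85 with UNC0638, and 1.59 and 1.76 with the combination. With the combination 3 of the 5 tested rose and 1 fell. The monocyte and macrophage sums were 0.945 and 0.926, 0.641 and 0.736, 1.81 and 2.04, and 1.86 and 2.12 in the same order. Of these markers 2 of the 3 tested rose with the combination, and CD163, CSF1R and FCGR3A were below background throughout. Among all probes 22.2% were called higher there and 31.7% lower. The 8 plasma cell markers summed to 279 and 335 with DMSO and 179 and 235 with the combination in RPMI-8226, where 3 fell. In MM.1S they summed to 538 and 552 against 377 and 372, and all 8 fell. Of all probes, 5.17% were called lower with the combination in RPMI-8226 and 31.7% in MM.1S. Stromal, endothelial and platelet sums stayed at or below 2.31. Of the stromal markers, LUM (at least 2.66-fold, limma adjusted p = 0.00316) and COL1A2 (at least 3.19-fold, adjusted p = 0.000741) rose with the combination in RPMI-8226, and DCN (at least 1.19-fold, adjusted p = 9.54e-05) in MM.1S. The part of these markers in the chemokine results was not tested, and in bulk RNA of a cell line a change in the share of cells that express a gene cannot be told apart from a change in RNA per cell.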

How the data were processed

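Levels came from 16 one-color scanner files. The authors scanned the arrays and deposited spot intensity values, extracted per the submitters' processing notes with Agilent Feature Extraction 10.7. Their methods name an analysis program that took in the data, but no test of single probes. For each array, log2 of the deposited processed intensity minus the 75th percentile over all spots that are not controls was taken, outlier spots were left out, and spots of a probe were averaged. The series table was used as an alternative, but 99.9956% of 939472 values compared were equal to the deposited intensities. It is nearly the same data, so its agreement carries no separate information. Probes that both replicates of any group of a line put well above background were fitted with limma 3.58.1 (R 4.3.3) over the 8 arrays of that line, with Benjamini-Hochberg adjustment over all probes kept. The difference between lines was an interaction over all 16 arrays. The script was tested on simulated data.

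Replicates 1 and 2 of a group differed alike across groups in RPMI-8226 (r = 0.254 to 0.415 for 6 of 6 pairs of groups). There the numbers were taken to pair the samples, although each number also had its own slide row. In MM.1S only 5 of 6 passed 0.1 (0.0847 to 0.225), and there the numbers were not taken to pair the samples. P-values for RPMI-8226 came from the fit without pairing unless marked as paired. With pairing, chemokine calls against DMSO there went from 2 to 9 for GSK126, 3 to 5 for UNC0638 and 17 to 23 for the combination. A change given as not passing in RPMI-8226 may therefore pass when paired. Replicates of a group correlated at 0.985 to 0.991 in RPMI-8226 and 0.993 to 0.995 in MM.1S. Arrays give no read depth, and 2 arrays a group limit the precision. The members, the gene lists and the tests were chosen with earlier results of these data known. Any member could be named. Array values, though not always for every group, were given for probes called against DMSO in either line and for CXCL13 and CXCL10. The brightest called probe stood for its gene, and of each pathway list at most 4 called genes a line were named by size. CCL2 in RPMI-8226, CXCL1, CXCR4 and CXCR5 were picked after their values were seen. Some genes of the pathway lists are not reported here and were left out of the list counts. Alternatives were quantile normalization, another percentile, normexp background correction, 2 other filters, a replicate block, an intensity-dependent variance, 1 fit over all arrays, the series table and each array left out.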

Additional observations from a re-analysis of the deposited data

Results flagged for a closer look

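The change against DMSO differed between RPMI-8226 and MM.1S for 25 chemokine results, by limma's test of the difference itself. Each value is the log2 change in RPMI-8226 minus that in MM.1S. Where a gene was below background in a line these are fitted differences and not bounds, and line and slide cannot be told apart.

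With GSK126 alone the difference was 4.11 for CCL4 (adjusted p = 0.0282), -5.21 for CXCL13 (adjusted p = 0.000158) and 1.54 for CXCL6 (adjusted p = 0.0489). With each of the 16 arrays left out, CXCL6 was lost in 13 refits and CCL4 in 6. With UNC0638 alone it was -1.97 for CCL1 (adjusted p = 0.00731), -2.43 for CCL25 (adjusted p = 0.0455), -2.38 for CXCL13 (adjusted p = 0.00697) and 2.25 for CXCL6 (adjusted p = 0.0042), of which CCL25 was lost in 11 refits, and CXCL13 with normexp (adjusted p = 0.359).

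With the combination the CXC ligands that changed more in RPMI-8226 were CXCL6 at 4.11 (adjusted p = 2.69e-05), IL8 at 2.91, CXCL3 at 2.70, and CXCL10 at 1.77 and 1.91 by its 2 probes. The CC ligands were CCL3 at 5.67, CCL3L3 at 5.66 and 4.19, CCL4 at 5.53 and 5.15, CCL18 at 4.02 and CCL5 at 1.43. In the other direction stood CXCL13 at -6.83 (adjusted p = 3.97e-06), CCL25 at -4.49 and -4.17, CXCL16 at -1.51 and -2.23, and CCL1 at -2.18. The highest adjusted p among these combination results was 0.0312, for CXCL3.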

How the results depend on the processing

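Chemokine probes called were recounted under every alternative. No call of a single probe changed direction, and 55 of the 113 calls were lost under no alternative that tested them. A call counted as kept where an alternative did not test its probe. With only probes above background on all arrays, 63 of the 115 results followed, which include the 113 calls, were tested. Calls of CXCL13, CCL18 and CCL25 were not tested under that filter and could not be lost there. The difference between lines was not tested in 1 fit over all 16 arrays.

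Without a filter on dim probes the counts were 0 for GSK126, 1 for UNC0638, 4 for the combination against GSK126 and 5 for the combination against UNC0638 in RPMI-8226. In MM.1S they were 2 for GSK126, 6 for the combination against GSK126 and 1 against UNC0638, and for the difference between lines with GSK126 1. With probes above background on all arrays they were 10 for the combination, 4 against GSK126 and 4 against UNC0638 in RPMI-8226, 3 against UNC0638 in MM.1S, and 0, 1 and 7 for the difference between lines with GSK126, UNC0638 and the combination. In 1 fit over all 16 arrays they were 6 for GSK126 and 13 for the combination against UNC0638 in RPMI-8226, and 6 for GSK126, 6 against GSK126 and 3 against UNC0638 in MM.1S. Normexp background correction gave 5 for the difference with GSK126.

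With the replicate block the counts in RPMI-8226 were 9 for GSK126, 5 for UNC0638, 11 for the combination against GSK126 and 17 against UNC0638, and 7 for the difference between lines with GSK126. In MM.1S, where the numbers were not taken to pair the samples, the block moved no count by over 1.5 times. It ended 3 calls there, CXCL16 with GSK126 (adjusted p = 0.0502), and CCL4 (0.0568) and CXCL9 (0.0523) for the combination against GSK126.

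With each array left out in turn, counts in RPMI-8226 were 0 to 2 for GSK126, 0 to 1 for UNC0638, 10 to 17 for the combination, 3 to 6 against GSK126 and 2 to 9 against UNC0638. In MM.1S they were 2 to 8, 6 to 9, 12 to 15, 5 to 8 and 1 to 6 in the same order, and for the difference between lines 1 to 4, 3 to 4 and 15 to 19. A group left with 1 array is assumed to vary like the others. The causes were not tested. Probes below background on both arrays of a group have only a bound there.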
